A study of Homo sapiens with 4 samples.

Results

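The genes described here encode the PI3K, AKT and mTORC1 nutrient-sensing pathway. The set was a list of 51 genes given by name, from class I PI3K subunits and their adaptors to AKT, the mTOR complexes, the TSC complex, the RAG GTPases with Ragulator and folliculin, the GATOR complexes, the sestrins, DDIT4 and the S6 kinases. Each of the 51 names matched 1 of the 64252 Ensembl gene IDs in the count table, and all 51 passed the filter on low counts that left 18817 genes for testing. The cells were J.gamma1, a line of T-cell acute lymphoblastic leukaemia (T-ALL) derived from Jurkat and known for its lack of the enzyme PLCG1. One group was cultured for 48 h with 10 µM FB23-2, an inhibitor of the RNA demethylase FTO, and the control group with the DMSO vehicle at under 0.1%, with 2 independent replicate samples in each group. The only contrast was FB23-2 against control in this single line, so that a change common to both groups cannot be seen.

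Class I PI3K is recruited by receptors and adaptors, makes the membrane lipid PIP3, and thereby brings the kinases PDPK1 and AKT together. AKT releases the small GTPase RHEB from inhibition by the TSC complex, and RHEB activates mTORC1 at the lysosome. Amino acids act through a second arm, in which the RAG GTPases, anchored by Ragulator and controlled by the GATOR complexes and folliculin, bring mTORC1 to the lysosomal surface. T-ALL cells are known to depend often on this pathway, and Jurkat cells are known to make little or no SHIP1, the phosphatase encoded by INPP5D. The pathway is controlled largely by phosphorylation and location, which RNA counts do not show.

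The promoters below belong to the members with the highest fold changes (SESN2 and SESN3), to a pair that was higher and holds an E-box (FNIP1 and RRAGC), and to TSC2, which holds several of the letters searched but did not pass the test. They are RefSeq windows on GRCh38.p14, running 5′ to 3′ from 250 bases before the annotated start to 50 bases after it. Capitals mark every match to CACGTG (E-box), TCACGTGA (the core of the CLEAR element known from lysosomal genes), TGATGNAA (composite site known for ATF4 and CEBP), TGTTTAC (FOXO) or TGTTTTG (FOXO insulin response), searched on both strands.
SESN2 promoter, chr1:28259268-28259567, plus strand: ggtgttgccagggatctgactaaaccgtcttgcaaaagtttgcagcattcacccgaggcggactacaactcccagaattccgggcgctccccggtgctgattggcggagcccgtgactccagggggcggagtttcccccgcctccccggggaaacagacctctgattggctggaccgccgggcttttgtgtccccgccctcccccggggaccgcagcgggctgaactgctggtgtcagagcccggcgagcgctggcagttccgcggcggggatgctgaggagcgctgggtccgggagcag
SESN3 promoter, chr11:95232426-95232725, minus strand: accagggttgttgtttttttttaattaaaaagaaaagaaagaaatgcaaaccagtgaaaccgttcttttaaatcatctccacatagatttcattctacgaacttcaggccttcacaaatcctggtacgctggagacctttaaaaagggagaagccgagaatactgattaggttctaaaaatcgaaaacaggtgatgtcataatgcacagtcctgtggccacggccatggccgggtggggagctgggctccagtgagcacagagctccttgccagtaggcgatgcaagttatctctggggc
FNIP1 promoter, chr5:131796968-131797267, minus strand: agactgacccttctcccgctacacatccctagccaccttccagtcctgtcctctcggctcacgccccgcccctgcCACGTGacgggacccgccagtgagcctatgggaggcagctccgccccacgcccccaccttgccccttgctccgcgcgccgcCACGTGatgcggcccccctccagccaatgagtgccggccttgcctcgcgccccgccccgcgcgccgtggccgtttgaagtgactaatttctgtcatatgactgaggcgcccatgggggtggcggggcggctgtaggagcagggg
RRAGC promoter, chr1:38859723-38860022, minus strand: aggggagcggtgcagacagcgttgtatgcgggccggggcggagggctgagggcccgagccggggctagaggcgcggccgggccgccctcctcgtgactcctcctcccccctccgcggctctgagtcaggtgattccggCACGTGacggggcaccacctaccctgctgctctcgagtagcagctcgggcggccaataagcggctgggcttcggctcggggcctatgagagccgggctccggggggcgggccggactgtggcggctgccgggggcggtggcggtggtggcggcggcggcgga
TSC2 promoter, chr16:2047735-2048034, plus strand: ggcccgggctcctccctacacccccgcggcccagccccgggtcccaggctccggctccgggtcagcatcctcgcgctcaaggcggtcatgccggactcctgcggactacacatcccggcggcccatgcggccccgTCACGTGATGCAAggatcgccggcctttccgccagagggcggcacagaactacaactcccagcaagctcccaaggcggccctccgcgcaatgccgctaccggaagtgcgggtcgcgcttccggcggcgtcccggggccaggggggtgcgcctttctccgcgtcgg
Windows were found for 45 members, some with several starts, giving 68 windows. CACGTG occurred in 7 of the 68 windows (10.3%), of FNIP1, IRS1, LAMTOR1, LAMTOR4, NPRL3, RRAGC and TSC2, against 7.26% of all 35116 windows. FNIP1 held it at positions -175 and -94 from the start, and RRAGC at -112. TSC2 held TCACGTGA at -115 and TGATGCAA at -110, and these overlap each other. TCACGTGA was present in 0.98% of all windows and in 1 member window, and TGATGNAA in 3.62% of all and in 2 member windows, of TSC2 and PIK3R1. TGTTTAC was present in 1 member window, of PIK3CA, against 3.42% of all. TGTTTTG was found in 4 member windows, of IRS2, PIK3CD, PIK3CG and RPS6KB1, against 4.92% of all. Members that were higher, lower and without a call all occur among these genes. The SESN2 and SESN3 windows shown hold none of the letters searched.

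Library totals were 37804516 and 33983246 counts with FB23-2 and 24615359 and 34897961 counts in control, so that 3 counts corresponded to 0.0784 to 0.124 CPM. Levels are given as CPM (counts per 1000000 after TMM scaling), and changes as log2 fold changes, FB23-2 over control, each with a standard error (SE) and called at an adjusted p under 0.05 in the edgeR quasi-likelihood test over all tested genes. Together the members took 0.329% and 0.336% of all counts with FB23-2, against 0.298% and 0.299% in control. The 11 T-cell markers examined summed to 1671 and 1613 CPM with FB23-2 and to 2146 and 2148 CPM in control. Of these markers, 8 were lower, 1 (PTPRC) was higher, and CD2 was low in every library, at 2.95 to 4.73 CPM. Whether this bears on the members' values was not tested. Markers of myeloid, erythroid, and epithelial or fibroblast cells summed to at most 9.25 CPM per list and library. The B-cell list summed to 43.3 to 45.2 CPM with FB23-2 and 39.6 to 46.3 CPM in control, nearly all from CD79A, with MS4A1 and PAX5 at 0.317 CPM or less. In bulk RNA, fewer cells of a kind and less RNA per cell cannot be told apart.

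In total, 20 members were higher with FB23-2 and 11 lower, and 20 did not pass. That is 60.8% of members, against a background of 42.1% of all tested genes, of which 21.8% were higher and 20.3% lower. Members were more abundant than most genes, with a median of 49.4 CPM against 15.2 CPM, and calls are more frequent at high levels. Among the 10475 genes at a mean of 10 CPM or more, 58.8% were called, 31.6% higher and 27.2% lower, against 64.6% of the 48 members at that level, with 20 higher and 11 lower. The share of members called was thus near that of genes of like level. With upper quartile scaling the split was 16 members higher and 14 lower. Over all tested genes it was then 3638 higher and 4234 lower, against 4099 and 3820 in the reported fit. The median log2 fold change of the members was 0.11, against 0.00 over all tested genes, and the median absolute value was 0.28, against 0.34. Only SESN2, SESN3 and AKT1S1 passed with at least a 2-fold change. Groups did not overlap in 42 of 51 members (82.4%), against 70.8% of all tested genes. That background was not matched for level, and the share among genes at 10 CPM or more was not computed.

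**Figure D1:**
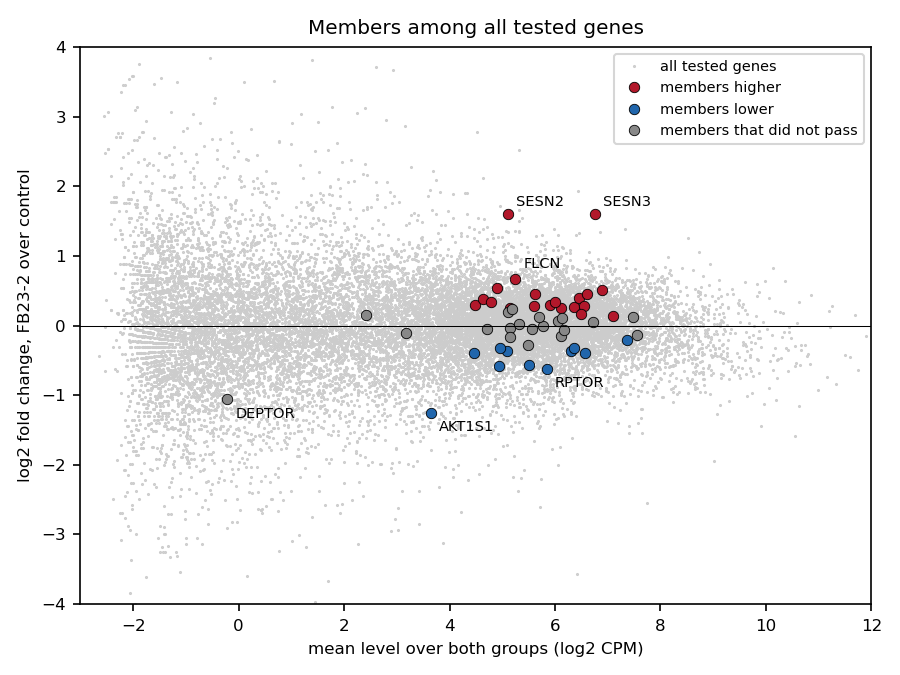
Log2 fold change of FB23-2 over control (vertical) against the mean level over both groups in log2 CPM (horizontal) for all tested genes (grey dots) and the 51 members (large points, coloured by call); 41 genes lie outside the range drawn. SESN2 and SESN3 stand highest among the members at 1.60, and most other members lie between -0.62 and 0.68.

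The sestrins are stress-induced proteins that restrain mTORC1, and SESN2 and SESN3 showed the highest fold changes of the set. SESN2, which binds leucine and holds back GATOR2, had 54.7 and 49.2 CPM with FB23-2, against 16.3 and 17.8 CPM in control. Both FB23-2 libraries stood far above both control libraries, a 3.03-fold difference with a log2 fold change of 1.60 ± 0.09 (SE, adjusted p = 2.13e-06). The gene (ENSG00000130766) lies on chromosome 1, 28259527 to 28282491 of hg38. SESN3 (ENSG00000149212; chromosome 11, 95165513 to 95232541) had 158 and 168 CPM with FB23-2, against 54.8 and 52.8 CPM in control. Its difference was also 3.03-fold, and the groups were as clearly apart, with a log2 fold change of 1.60 ± 0.05 (adjusted p = 2.42e-07). SESN1 had 27.7 and 28.7 CPM with FB23-2, against 22.5 and 21.1 CPM in control, a log2 fold change of 0.37 ± 0.09 (adjusted p = 0.00657). The groups of SESN1 did not overlap either, but its adjusted p was 0.0689 without control replicate 2, and the alternatives spanned 0.00343 to 0.0689. DDIT4, also called REDD1, is another stress-induced inhibitor of mTORC1, which acts through the TSC complex. It had 56.6 and 52.5 CPM with FB23-2, against 56.7 and 53.7 CPM in control, so the groups overlapped (-0.01 ± 0.07, adjusted p = 0.90). DDIT4-AS1, which is annotated on the opposite strand across 41.2% of its exon bases, had 0 counts.

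Per exon length, the sestrins were close together in control, at 4.94 ± 0.318 CPM per kb for SESN2, 5.09 ± 0.131 for SESN3 and 4.26 ± 0.192 for SESN1 (SD, n = 2). With FB23-2, SESN3 (15.4 ± 0.667 CPM per kb) and SESN2 (15.0 ± 1.12) did not differ beyond their spread, and SESN1 stood below both at 5.5 ± 0.137. Lengths are the union of all annotated exons, so a gene with rarely used exons appears lower on this scale.

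**Figure D2:**
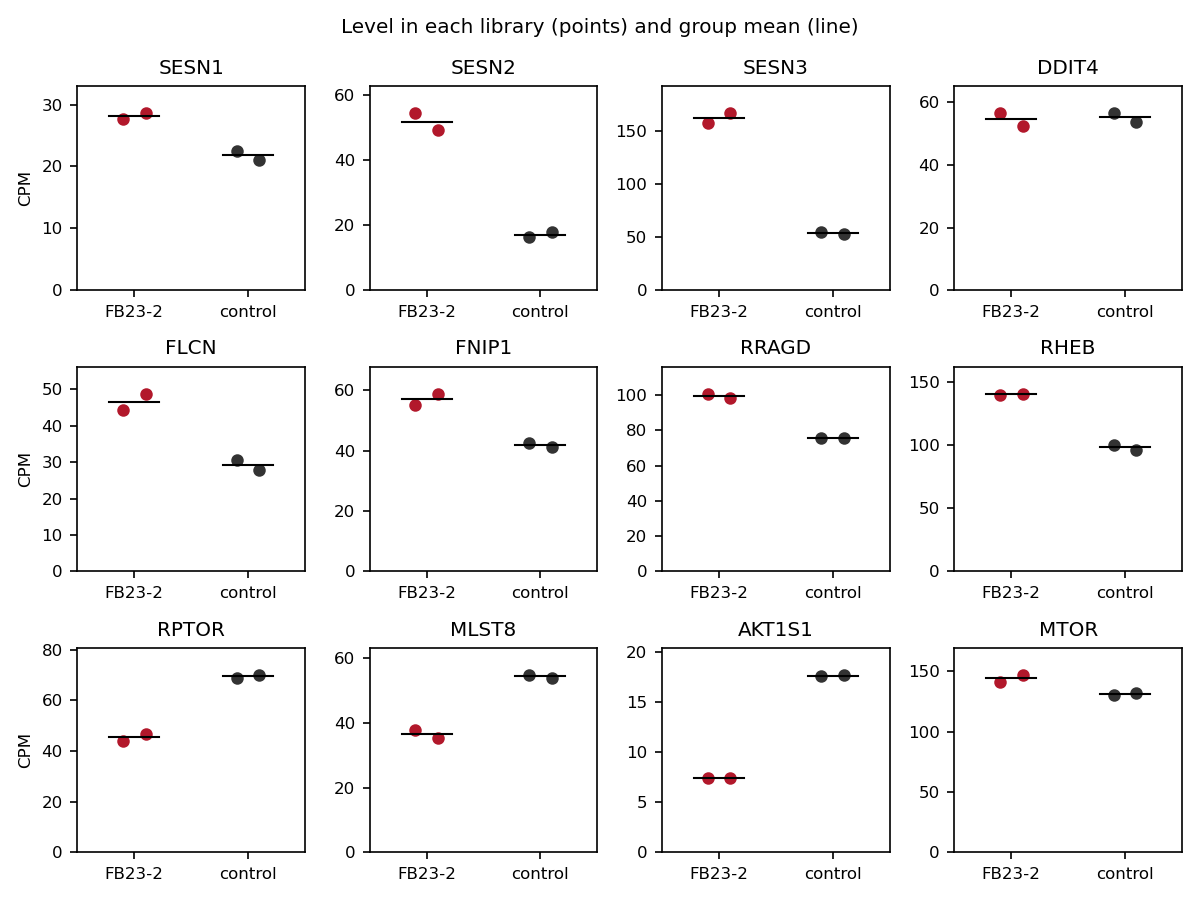
CPM in each library (points) and group means (lines) of 12 members, with FB23-2 left and control right in every panel and axes starting at 0. SESN2, SESN3, FLCN, FNIP1, RRAGD and RHEB are higher in both FB23-2 libraries, RPTOR, MLST8 and AKT1S1 are lower in both, and the DDIT4 points overlap. SESN1 (log2 fold change 0.37) and MTOR (0.14) are also higher in both, but each lost its call in at least 1 alternative.

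Of the 7 mTOR complex genes, 4 were lower and 1 higher, beside 20.3% lower and 21.8% higher of all tested genes and 27.2% and 31.6% of genes at 10 CPM or more. RPTOR encodes raptor, the substrate-binding subunit of mTORC1 (ENSG00000141564; chromosome 17, 80544819 to 80966371). It had 44.0 and 46.6 CPM with FB23-2, against 68.8 and 70.1 CPM in control, and its groups lay well apart (-0.62 ± 0.06, adjusted p = 4.74e-05). MLST8, a subunit shared by both mTOR complexes (ENSG00000167965; chromosome 16, 2204248 to 2209416), had 38 and 35.4 CPM with FB23-2, against 55.0 and 54.0 CPM in control (-0.57 ± 0.07, adjusted p = 0.000146). AKT1S1 encodes PRAS40, a raptor-bound inhibitor that AKT phosphorylates (ENSG00000204673; chromosome 19, 49869033 to 49878459). It had 7.45 and 7.40 CPM with FB23-2, against 17.6 and 17.8 CPM in control. This was the lowest fold change among the called members, with libraries of a group nearly equal (-1.25 ± 0.12, adjusted p = 3.24e-05). MAPKAP1, or SIN1, a subunit of mTORC2, averaged 81.7 ± 3.89 CPM under FB23-2 and 108 ± 2.80 CPM in control (SD, n = 2), and was lower (-0.40 ± 0.05, adjusted p = 0.000332). RICTOR, the other defining subunit of mTORC2, did not pass (0.07 ± 0.09) and its groups overlapped.

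The kinase gene MTOR itself had 141 and 147 CPM with FB23-2, against 130 and 132 CPM in control. Its groups did not overlap, but the difference was small (0.14 ± 0.05, adjusted p = 0.0348). The call was lost without any 1 of the 4 libraries (FB23-2 replicate 1, adjusted p = 0.0665; FB23-2 replicate 2, 0.146; control replicate 1, 0.223; control replicate 2, 0.123), and the alternatives spanned 0.0104 to 0.223. DEPTOR, an inhibitor that binds mTOR, was near the lower limit, with only 24 and 15 counts under FB23-2, against 39 and 26 counts in control, and did not pass (-1.05 ± 0.49, adjusted p = 0.12). Its log2 fold change was -0.51 without control replicate 1 and -1.59 without control replicate 2.

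Of the TSC complex, which keeps RHEB inactive, TSC1 was higher (89.8 ± 1.17 CPM with FB23-2 and 74.6 ± 0.841 CPM in control; 0.27 ± 0.05, adjusted p = 0.00238). TSC2, its catalytic partner, did not pass (-0.14 ± 0.06, adjusted p = 0.0823), nor did the third subunit gene TBC1D7 (-0.04 ± 0.08). TSC2 was lower, and passed, with upper quartile scaling (adjusted p = 0.0340) and with the stricter count filter (0.0449), with 0.034 to 0.478 across alternatives. RHEB (ENSG00000106615; chromosome 7, 151466012 to 151520120) had 140 and 141 CPM with FB23-2, against 100 and 96.5 CPM in control (0.51 ± 0.05, adjusted p = 2.97e-05). Its groups lay well apart, but the value is uncertain, because processed pseudogenes of RHEB share its sequence and how reads were split among them is not given. Of these, RHEBP2 was also higher, with 26.7 and 26.8 CPM under FB23-2, against 17.3 and 18.5 CPM in control, RHEBP1 had 5.57 to 7.69 CPM, and RHEBP3 had 0 counts.

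The lysosomal arm of RAG GTPases, Ragulator and folliculin had 6 of 11 members higher and 1 lower, where 31.6% of genes at 10 CPM or more were called higher and 27.2% lower. FLCN encodes folliculin, which with the FNIP proteins acts on RRAGC and RRAGD to set their nucleotide state (ENSG00000154803; chromosome 17, 17212212 to 17237188). It had 44.3 and 48.8 CPM with FB23-2, against 30.7 and 27.9 CPM in control (0.68 ± 0.08, adjusted p = 0.000184). Its partners moved the same way, FNIP1 with 57.0 ± 2.54 CPM under FB23-2 and 41.8 ± 0.975 CPM in control (0.45 ± 0.07, adjusted p = 0.000542) and FNIP2 with 66.0 ± 1.06 CPM under FB23-2 and 53.6 ± 1.36 CPM in control (0.30 ± 0.06, adjusted p = 0.00258). Both of their substrates were higher too, RRAGD with 101 and 98.3 CPM with FB23-2 against 75.9 and 75.6 CPM in control (0.39 ± 0.05, adjusted p = 0.00022), and RRAGC with 51.7 and 54.3 CPM with FB23-2 against 43.5 and 43.7 CPM in control (0.28 ± 0.06, adjusted p = 0.00657). RRAGA, which pairs with them, did not pass (0.19 ± 0.07, adjusted p = 0.0632) unless libraries were scaled by their totals alone (0.0259, range 0.0259 to 0.294). No library of one group reached the range of the other in any of FLCN, FNIP1, FNIP2, RRAGC and RRAGD. Per exon length, RRAGA (23.2 ± 0.0112 CPM per kb with FB23-2 and 20.4 ± 0.805 in control) stood above RRAGD (19.6 ± 0.349 with FB23-2 and 14.9 ± 0.0353 in control), and RRAGC was lowest in both groups.

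Ragulator, the scaffold that holds the RAG proteins at the lysosome, did not move as a unit. LAMTOR2 (ENSG00000116586; chromosome 1, 156054752 to 156058510) had 25.0 and 23.8 CPM with FB23-2, against 37.7 and 35.7 CPM in control, and was lower (-0.58 ± 0.08, adjusted p = 0.00033). LAMTOR3 had 40.3 and 37.2 CPM with FB23-2, against 30.9 and 34.2 CPM in control, and passed narrowly in the other direction (0.25 ± 0.08, adjusted p = 0.0371). It lost its call without FB23-2 replicate 1 (adjusted p = 0.231), control replicate 1 (0.245) or the control replicate 2 (0.0528), with 0.0172 to 0.245 across alternatives. LAMTOR1, the membrane anchor, did not pass (-0.29 ± 0.11, adjusted p = 0.0663), with 44.6 and 35.6 CPM under FB23-2, against 51 and 47.2 CPM in control. Its value turned on single libraries, at -0.48 (adjusted p = 0.00522) without FB23-2 replicate 1 and -0.13 (0.272) without FB23-2 replicate 2. It was lower with a replicate block (-0.30, adjusted p = 0.00814) and with upper quartile scaling (0.0391), with 0.00522 to 0.272 across alternatives. LAMTOR4 (-0.16 ± 0.07) and LAMTOR5 (-0.07 ± 0.07) did not pass.

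**Figure D3:**
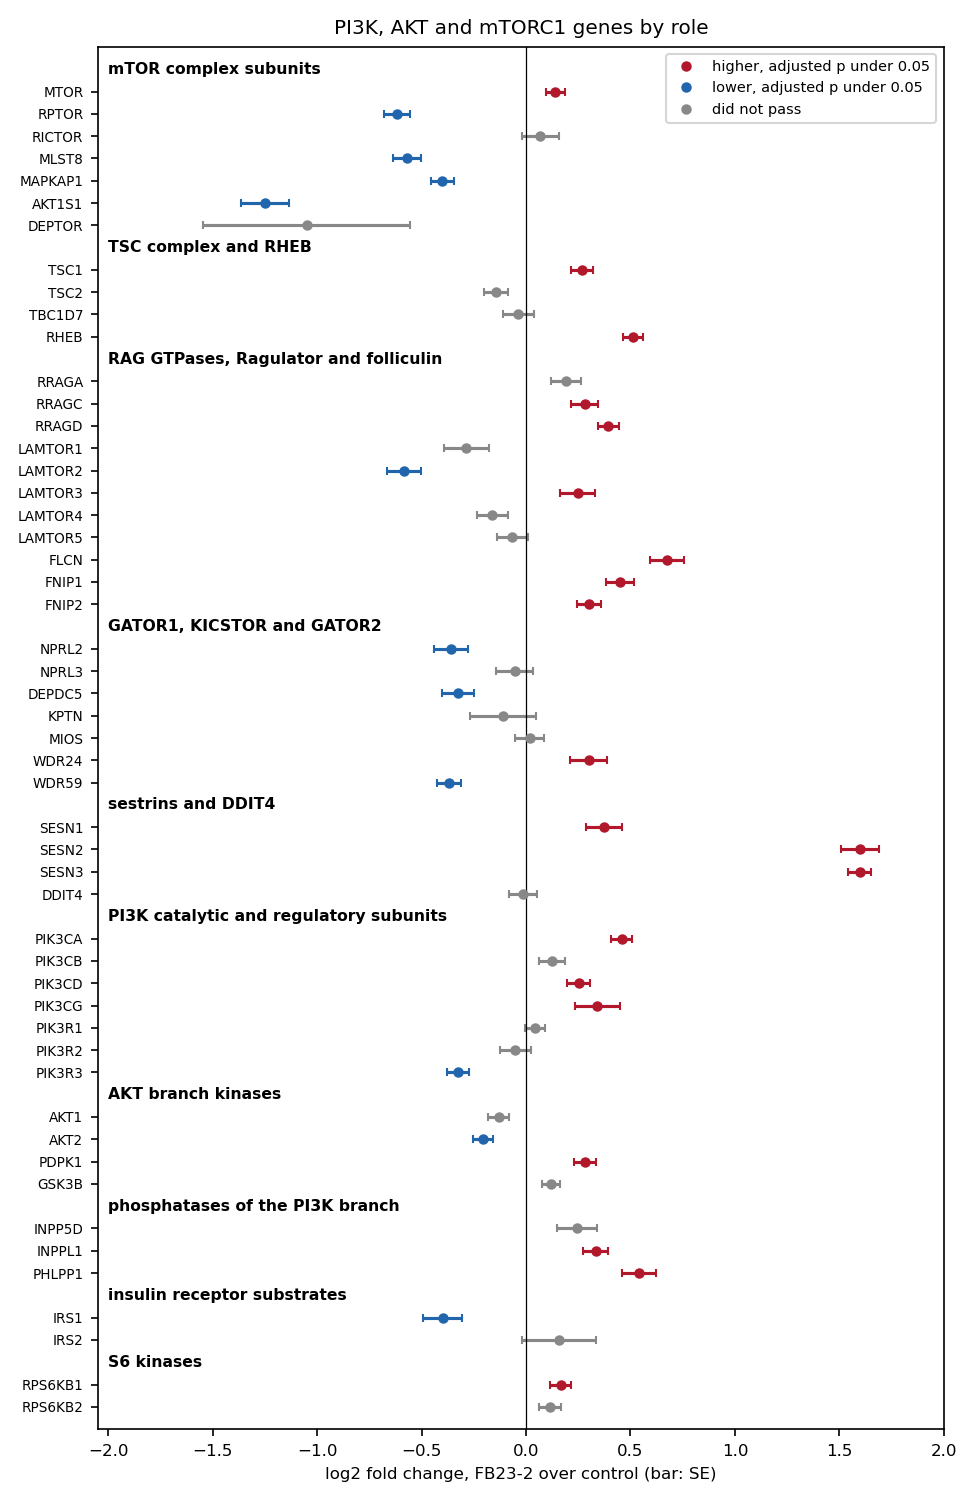
Log2 fold change of FB23-2 over control with SE bars for all 51 members, grouped by role and coloured by call. SESN2 and SESN3 lie at 1.60, the folliculin and RAG genes lie mostly to the right of 0, and 4 of 7 mTOR complex genes lie to the left with a call.

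The GATOR complexes relay amino acid supply to the RAG proteins. Among 7 genes, 3 were lower and 1 higher, beside 27.2% lower and 31.6% higher of genes at 10 CPM or more. In GATOR1, which switches the RAG proteins off, NPRL2 (-0.36 ± 0.08, adjusted p = 0.00571) and DEPDC5 (-0.33 ± 0.08, adjusted p = 0.00668) were lower, and NPRL3 did not pass (-0.06 ± 0.09). DEPDC5 had 27.2 and 27.8 CPM with FB23-2, against 34.7 and 34.2 CPM in control. In GATOR2, which opposes GATOR1, WDR59 had 66.8 and 70.7 CPM with FB23-2, against 86.6 and 90.9 CPM in control, and was lower (-0.37 ± 0.06, adjusted p = 0.00068). MIOS did not pass (0.02 ± 0.07). WDR24 had 24.9 and 24.9 CPM with FB23-2, against 19.4 and 20.8 CPM in control, and was higher (0.30 ± 0.09, adjusted p = 0.022), but lost its call without any 1 of the 4 libraries (adjusted p = 0.0878 without FB23-2 replicate 1, 0.0659 without FB23-2 replicate 2, 0.136 without control replicate 1 and 0.0600 without control replicate 2) and in DESeq2 (0.0679), with 0.0115 to 0.136 across alternatives. A transcript on the opposite strand, at 1.75 to 2.99 CPM, shares 35.7% of the WDR24 exon bases. KPTN, of the KICSTOR complex that tethers GATOR1, averaged 8.58 ± 0.857 CPM under FB23-2 and 9.38 ± 1.45 CPM in control (SD, n = 2) and did not pass (-0.11 ± 0.16).

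Among class I PI3K catalytic subunits, which phosphorylate the membrane lipid, 3 of 4 were higher and 0 lower. Of genes at 10 CPM or more, 31.6% were higher. The call of PIK3CG was lost in some of the alternatives. PIK3CA, encoding p110-alpha, had 112 and 114 CPM with FB23-2, against 80.6 and 84.1 CPM in control (0.46 ± 0.05, adjusted p = 9.08e-05). PIK3CD, the form known for its role in lymphocytes, had 74.9 and 75.8 CPM with FB23-2, against 63.6 and 62.9 CPM in control (0.25 ± 0.05, adjusted p = 0.00448). In both genes the groups lay apart. PIK3CG, the form coupled to G protein receptors, had 27.8 and 34.0 CPM with FB23-2, against 23.8 and 24.8 CPM in control (0.34 ± 0.11, adjusted p = 0.030). Its log2 fold change was 0.20 without FB23-2 replicate 2 and no longer passed (adjusted p = 0.180). The call was also lost without control replicate 1 (0.30, adjusted p = 0.146) or the control replicate 2 (0.37, 0.108), with 0.00861 to 0.180 across alternatives. PIK3CB did not pass (0.12 ± 0.06, adjusted p = 0.151). Per exon length, PIK3CA and PIK3CD were level with FB23-2, at 11.9 ± 0.153 and 11.9 ± 0.0991 CPM per kb, whereas in control PIK3CD (9.99 ± 0.0818) stood above PIK3CA (8.68 ± 0.262). PIK3CB and PIK3CG were lower than these in both groups.

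The regulatory subunits bind and hold the catalytic ones, and 1 of 3 was lower, beside 27.2% of genes at 10 CPM or more. PIK3R3 had 73.3 and 73.0 CPM with FB23-2, against 93.5 and 90.2 CPM in control, and was lower (-0.33 ± 0.05, adjusted p = 0.00081). PIK3R1 (0.04 ± 0.05) and PIK3R2 (-0.05 ± 0.07) did not pass. Per exon length, PIK3R1, PIK3R2 and PIK3R3 lay between 9.87 and 10.3 CPM per kb with FB23-2, and PIK3R3 was highest in control at 12.4 ± 0.314. PIK3R2 shares 87.2% of its exon bases with a read-through gene on the same strand that had at most 0.314 CPM, and PIK3CA shares 35.8% with KCNMB3 on the opposite strand, at 0 to 0.0871 CPM.

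**Figure D4:**
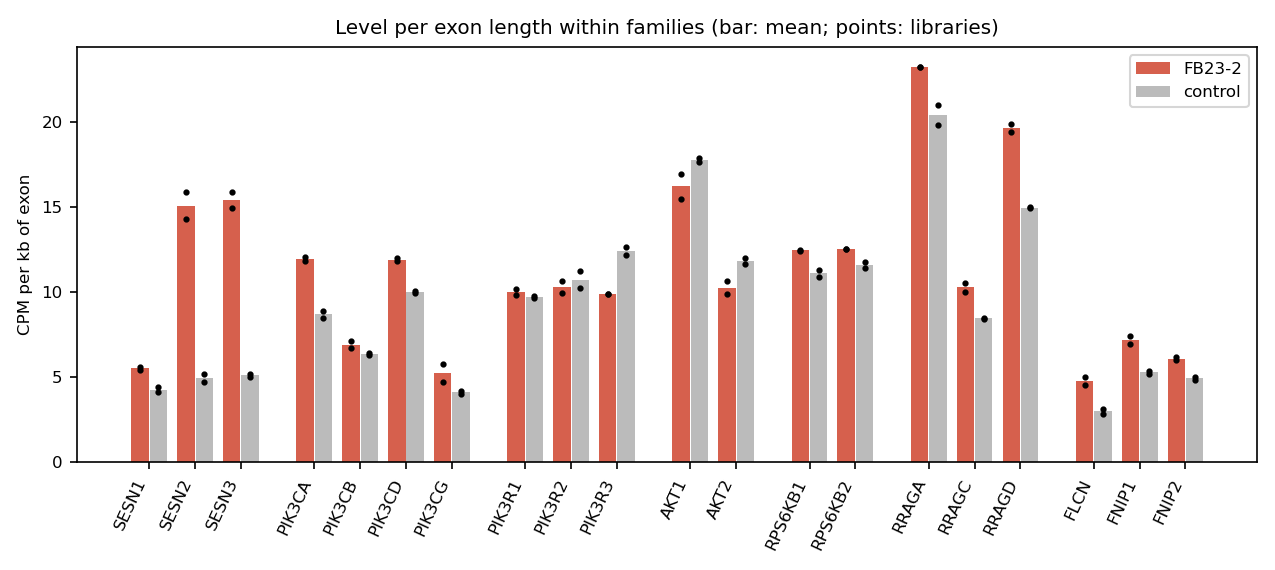
CPM per kb of annotated exon for related members, with FB23-2 bars left of control bars, bars for means and points for libraries. SESN2 and SESN3 stand near 15 with FB23-2 and near 5 in control, and the FB23-2 bars are higher in each catalytic subunit gene, although PIK3CB did not pass.

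Downstream of PI3K, PDPK1, the kinase that activates AKT, was higher (103 ± 1.64 CPM with FB23-2 and 84.3 ± 3.62 CPM in control; 0.28 ± 0.05, adjusted p = 0.00203). AKT2 had 149 and 160 CPM with FB23-2, against 175 and 180 CPM in control, and was lower (-0.21 ± 0.05, adjusted p = 0.00752), although not without control replicate 2 (0.0829, range 0.00274 to 0.0829). AKT1 had 189 and 173 CPM with FB23-2, against 197 and 199 CPM in control, and did not pass (-0.13 ± 0.05, adjusted p = 0.0643). Its log2 fold change was -0.21 without FB23-2 replicate 1 and -0.06 without FB23-2 replicate 2 (adjusted p = 0.358). It was lower and passed without FB23-2 replicate 1 (0.0135), with upper quartile scaling (0.0213), with the stricter filter (0.0361) and in a fit with the replicate number as a block (0.0397), with 0.0135 to 0.358 across alternatives. AKT1 exceeded AKT2 per exon length in both groups, at 16.2 ± 1.01 and 10.3 ± 0.525 CPM per kb with FB23-2, and 17.7 ± 0.174 and 11.8 ± 0.237 in control. GSK3B, a kinase that AKT inhibits, did not pass (0.12 ± 0.04, adjusted p = 0.0521), but did when libraries were scaled by their totals alone (0.0136) or a replicate block was fitted (0.0400), with 0.0136 to 0.233 across alternatives.

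The phosphatases that oppose the PI3K branch were higher in 2 of 3 cases, beside 31.6% of genes at 10 CPM or more. PHLPP1, which removes an activating phosphate from AKT (ENSG00000081913; chromosome 18, 62715450 to 62980433), had 34.9 and 35.5 CPM with FB23-2, against 25.3 and 23.3 CPM in control (0.54 ± 0.08, adjusted p = 0.000587). INPPL1, or SHIP2, which acts on PIP3, had 69.7 and 72.7 CPM with FB23-2, against 55.6 and 57.4 CPM in control (0.33 ± 0.06, adjusted p = 0.00145). In neither gene did the groups overlap. INPP5D RNA was present, with 38.1 and 41.6 CPM under FB23-2, against 30.4 and 36.2 CPM in control, and did not pass (0.24 ± 0.09, adjusted p = 0.0636). Its log2 fold change was 0.39 (adjusted p = 0.0299) without control replicate 2 and 0.12 (0.399) without control replicate 1. It was also higher in a fit blocked on replicate number (0.0191) and with libraries scaled by their totals alone (0.0360), with 0.0191 to 0.399 across alternatives.

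IRS1, an adaptor that couples insulin and growth factor receptors to PI3K, had 18.3 and 20.0 CPM with FB23-2, against 24.9 and 25.6 CPM in control, and was lower (-0.40 ± 0.09, adjusted p = 0.00675), though not without control replicate 2 (0.0607, range 0.00407 to 0.0607). IRS2 was low, at 4.64 to 5.73 CPM, and did not pass (0.16 ± 0.18). The S6 kinases, which mTORC1 activates, moved little. RPS6KB1 had 95.2 and 96.0 CPM with FB23-2, against 86.9 and 83.7 CPM in control (0.17 ± 0.05, adjusted p = 0.025), and its call was lost without any 1 of the 4 libraries (adjusted p = 0.104 without FB23-2 replicate 1, 0.0839 without FB23-2 replicate 2, 0.0826 without control replicate 1 and 0.168 without control replicate 2), with 0.00737 to 0.168 across alternatives. RPS6KB2 did not pass (0.11 ± 0.05, adjusted p = 0.123) unless libraries were scaled by their totals alone (0.0375, range 0.0375 to 0.391).

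Sorted by the known role of the protein, neither side of the pathway moved one way. FLCN, FNIP1 and FNIP2 (higher), PIK3R3 (lower), and GSK3B, PIK3R1 and PIK3R2 (no call) were placed on neither side. Of 16 members known as brakes, 6 were higher (TSC1, SESN1, SESN2, SESN3, INPPL1 and PHLPP1) and 3 lower (NPRL2, DEPDC5 and AKT1S1), with a median log2 fold change of -0.02. Of 28 members known as drivers, 11 were higher and 7 lower, with a median of 0.12. The median over all tested genes was 0.00, and 31.6% of genes at 10 CPM or more were higher and 27.2% lower, so that these shares lie near the background.

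Other genes of the pathway were read from 4 further lists, to be set beside 21.8% higher and 20.3% lower of all tested genes. Among genes at 10 CPM or more, 31.6% were higher and 27.2% lower. Of 23 tested genes of the PI3K and AKT branch, 9 were higher and 4 lower, with a median of 0.15. SGK1, a kinase related to AKT, had 5.02 and 5.33 CPM with FB23-2, against 2.2 and 1.42 CPM in control (1.57 ± 0.25, adjusted p = 0.00082). The docking protein gene GAB1 was also low and higher with FB23-2 (1.41 ± 0.28, adjusted p = 0.0032). GAB2 was far more abundant, with 127 and 123 CPM under FB23-2 against 48.0 and 51.5 CPM in control (1.32 ± 0.06, adjusted p = 6.05e-07). GAB3 was higher too (0.76 ± 0.13, adjusted p = 0.00159). PRR5, of mTORC2, was lower (-0.87 ± 0.14, adjusted p = 0.000777), as were IGF1R (-0.25 ± 0.05, adjusted p = 0.00499) and the adaptor gene PIK3AP1 (-0.39 ± 0.09, adjusted p = 0.00831), the last not without FB23-2 replicate 2 (0.0531, range 0.00486 to 0.0531). PRR5L, at 0.232 to 1.31 CPM, passed (1.49 ± 0.49, adjusted p = 0.0364), but its log2 fold change was 2.34 without control replicate 1 and 0.77 without control replicate 2. It did not pass without control replicate 2 (adjusted p = 0.346), FB23-2 replicate 1 (0.144) or FB23-2 replicate 2 (0.0677), with 0.0292 to 0.346 across alternatives.

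Of 25 tested genes of amino acid sensing, 11 were higher and 6 lower, with a median of 0.11. RNF152, a ubiquitin ligase that acts on RRAGA, had 3.69 and 3.92 CPM with FB23-2, against 0.332 and 1.07 CPM in control (2.30 ± 0.36, adjusted p = 0.000795). Both FB23-2 libraries lay above both control libraries at these low levels, and the log2 fold change was 3.5 without control replicate 2. CASTOR1, the arginine sensor, had 10.7 and 11.1 CPM with FB23-2, against 5.39 and 6.12 CPM in control (0.91 ± 0.15, adjusted p = 0.000862), and BMT2, the S-adenosylmethionine sensor SAMTOR, was higher too (0.67 ± 0.10, adjusted p = 0.000469). KICS2, of KICSTOR (-0.87 ± 0.10, adjusted p = 0.000157), SEH1L, of GATOR2 and the nuclear pore (-0.65 ± 0.05, adjusted p = 1.51e-05), and TELO2, of a chaperone complex for mTOR and related kinases (-0.52 ± 0.06, adjusted p = 0.000134), were lower.

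The AMPK list, for the energy-sensing kinase that opposes mTORC1, had 5 of 12 tested genes higher and 3 lower, with a median of -0.04. CAMKK2, a kinase that activates AMPK, had 58.4 and 55.4 CPM with FB23-2, against 105 and 105 CPM in control (-0.89 ± 0.05, adjusted p = 2.99e-06). Subunit genes went both ways, PRKAG2 higher (0.43 ± 0.08, adjusted p = 0.00155) and PRKAB2 lower (-0.27 ± 0.06, adjusted p = 0.00708). STRADB (0.49 ± 0.08, adjusted p = 0.000676) and STRADA (0.33 ± 0.07, adjusted p = 0.00295), partners of the upstream kinase LKB1, were higher. PRKAB1 (-0.16 ± 0.05, adjusted p = 0.0281) lost its call without any 1 of the 4 libraries, with adjusted p values of 0.0630 and 0.0863 without FB23-2 replicates 1 and 2 and of 0.0620 and 0.170 without control replicates 1 and 2, with 0.0100 to 0.170 across alternatives.

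Of 22 tested substrates and effectors of mTORC1, 7 were higher and 10 lower, with a median of -0.04. EIF4A1, the RNA helicase of translation initiation, had 310 and 324 CPM with FB23-2, against 729 and 794 CPM in control (-1.26 ± 0.05, adjusted p = 3.47e-07). CAD, which starts pyrimidine synthesis, had 85.9 and 86.3 CPM with FB23-2, against 165 and 163 CPM in control (-0.93 ± 0.04, adjusted p = 1.01e-06). EIF4EBP3 was lower as well (-1.17 ± 0.30, adjusted p = 0.0119), at 0.922 to 2.32 CPM, but not in DESeq2 (0.0628) or without FB23-2 replicate 2 (0.0554), control replicate 1 (0.0608) or the control replicate 2 (0.0537), with 0.00885 to 0.0628 across alternatives. In the other direction, TFE3, a lysosomal transcription factor that mTORC1 holds in the cytoplasm, had 60.0 and 54.6 CPM with FB23-2, against 30.5 and 34.1 CPM in control (0.82 ± 0.08, adjusted p = 4.79e-05). Its relative TFEB was higher too, at 16.0 and 15.7 CPM with FB23-2 against 10.2 and 10.8 CPM in control (0.58 ± 0.11, adjusted p = 0.00259). LPIN1, a phosphatidate phosphatase that mTORC1 phosphorylates, was also higher (0.57 ± 0.06, adjusted p = 6.87e-05).

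**Figure D5:**
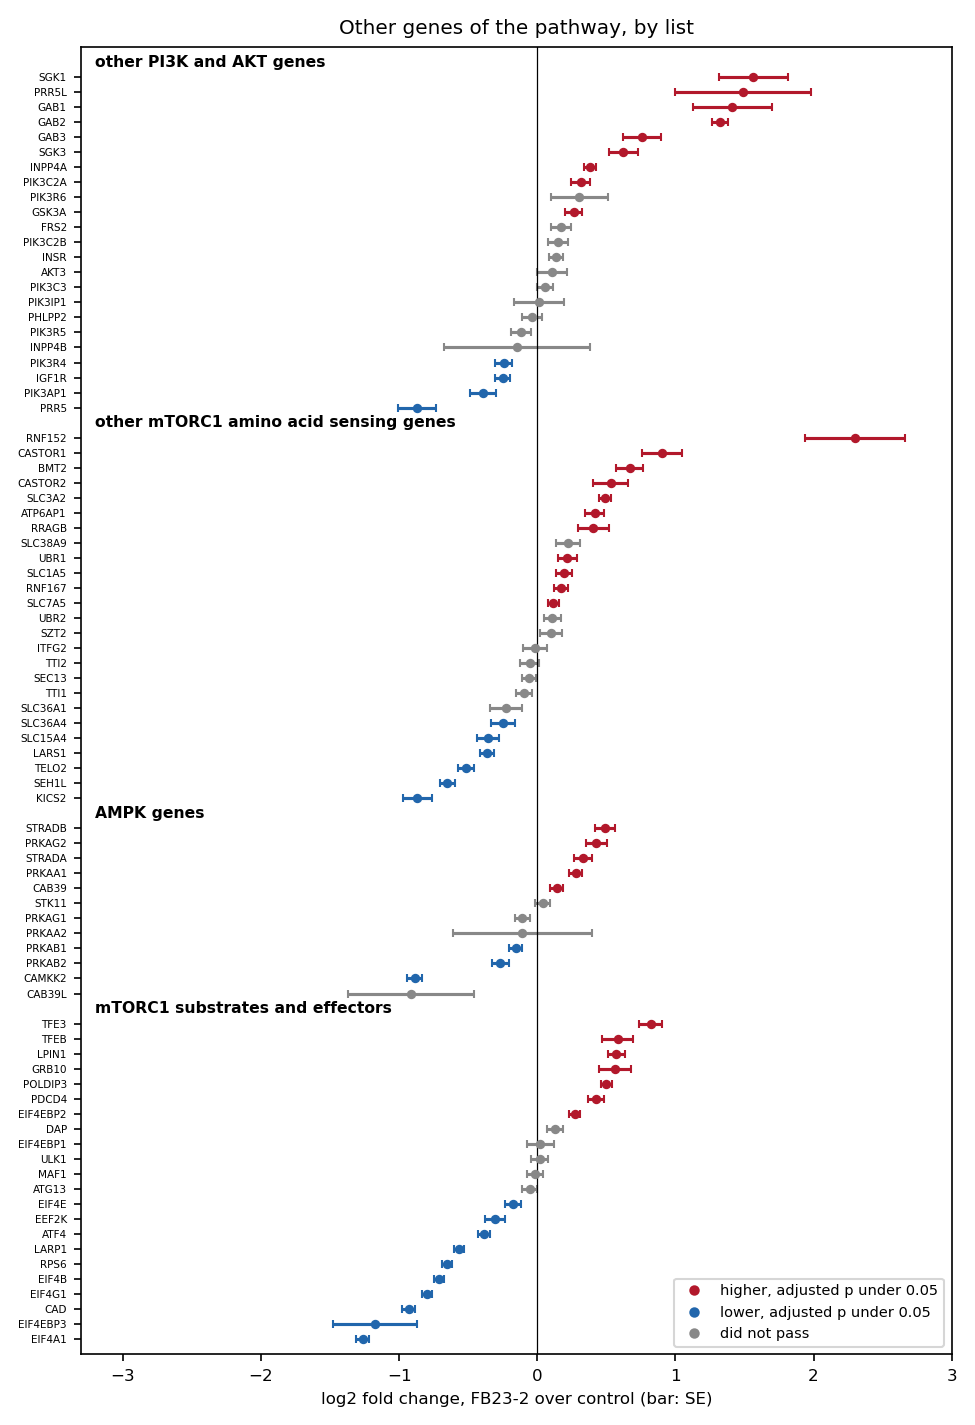
Log2 fold change of FB23-2 over control with SE bars for the 82 tested genes of the 4 further lists, sorted within each list and coloured by call. The effector list runs from TFE3 at 0.82 to EIF4A1 at -1.26.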

How the data were processed

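RNA was measured in 4 libraries of J.gamma1 cells, 2 given FB23-2 and 2 given vehicle. Per the labels' protocols, total RNA was extracted with Trizol, libraries were made with an Illumina TruSeq RNA kit, and the replicates of a group were independent. The authors deposited whole-number counts per gene, without normalization. HISAT2 2.2.0, StringTie and hg38 are named in the submitters' processing notes, whereas how reads were assigned to genes, with which annotation release and strand setting, is not given in the sources used here. Reads of a member and of a gene opposite it can therefore not be separated, and near-identical copies may share reads.

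Names came from a table of gene symbols, which matched 56105 IDs, and coordinates and exon lengths from GENCODE release 29 on the same build, which held 56591 of the 64252 IDs. With edgeR 4.0.16 in R 4.3.3, low genes were removed (filterByExpr, minimum count 10), TMM factors were computed, and the contrast was tested by glmQLFit (robust) and glmQLFTest, with Benjamini-Hochberg adjustment over all 18817 genes and a threshold of 0.05. The SE is the absolute log2 fold change over the square root of F. The fit was tested on simulated counts. DESeq2 1.42.0, other scalings and filters, a replicate block and leaving out each library were the alternatives. Counts limit precision through counting error, and floors cover that error only.

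The members and lists were chosen with earlier results of these data known. Library values, SE and adjusted p are given for all called members with an absolute log2 fold change of at least 0.5 at 5 CPM or more. Other members are given more briefly. From each further list, up to 3 called genes in each direction were named by log2 fold change, whatever their level. GAB2, GAB3, and the overlapping genes and pseudogenes named beside members were outside these rules. Promoter sequences are RefSeq's.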

Additional observations from a re-analysis of the deposited data

How the results depend on the processing

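All 31 called members kept their direction under the 11 alternatives, and 23 also kept their call in every one. The other 8 (MTOR, LAMTOR3, WDR24, SESN1, PIK3CG, AKT2, IRS1 and RPS6KB1) lost it in at least 1, and the cause was not tested. Besides losses without a library, upper quartile scaling ended the calls of MTOR, LAMTOR3, PIK3CG and RPS6KB1, as did fitting without a filter, and DESeq2 ended those of MTOR, LAMTOR3, WDR24 and RPS6KB1. Counts of called members stayed within 1.5 times those reported, at 15 to 24 higher and 9 to 14 lower. The median log2 fold change of the members (0.11) was 0.10 with DESeq2 median-of-ratios factors, 0.074 with upper quartile scaling and 0.16 with scaling by library size alone. Over all genes the median was -0.009, -0.039 and 0.048 under the same scalings, against 0.00 in the reported fit. The 2 medians thus shifted together with the scaling. For the members it was 0.10 with at least 30 counts in 2 libraries and 0.084 to 0.11 with 1 library left out. Leaving out a library left 15 or 16 members higher and 9 to 13 lower, and 2897 to 3439 genes higher and 2750 to 3318 lower over all genes. The deviations of same-numbered libraries of the 2 groups correlated at 0.06. With 2 libraries per group, this value cannot show whether same-numbered libraries were paired or shared a batch, and the labels give only a replicate number. A replicate block gave 22 members higher and 13 lower, and 4237 genes higher and 4031 lower over all genes. It ended no call among the members. Under the stricter filter DEPTOR was not tested. With 2 libraries per group, a p reflects the spread between these samples, estimated with information shared across genes. Small differences near the threshold can lose their call when 1 library is left out. Such a fit leaves 1 library in a group, so a lost call alone does not show that the difference rests on the library removed.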
